A study of Mus musculus with 5 samples.

Results

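The regions described here are the peaks of accessible chromatin around Mgll on mouse chromosome 6, leaving out those at gene positions. Peaks had been called separately in 5 libraries and were merged wherever they overlapped by at least 1 bp, which gave 220645 regions. Regions on chr6 between 83.7 and 93.8 Mb, which is about 5 Mb on each side of Mgll, were kept when they did not overlap any gene position of the deposited feature table widened by 1 kb. This rule used positions alone and kept 1001 of the 1310 regions in the window. The outermost members were chr6:83729118-83730042, with 3.51 to 4.65 cut sites per 1000000 in listed peaks (CPM) over the libraries, and chr6:93792165-93793188, with 2.48 to 3.497. The nearest regions beyond the limits, chr6:83693497-83694481 and chr6:93802168-93803158, held 2.23 to 3.17 and 1.80 to 2.66 CPM.

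Nuclei of mouse hippocampus were profiled with the 10x multiome assay, which reads RNA and chromatin accessibility from the same nucleus. The 5 groups were wild type, 5xFAD, 5xFAD with an astrocyte-specific MAGL-KO, 5xFAD with a neuron-specific MAGL-KO and 5xFAD with a global MAGL-KO, so all 3 MAGL-KO groups also carried 5xFAD. 5xFAD mice are a transgenic model of Alzheimer's disease that deposits amyloid, with transgenes under a neuronal promoter. The number, age and sex of the animals, the Cre drivers and the deleted part of Mgll are not given in the sources used here. Each group was 1 library, so no test between groups was possible, and every interval below is a 95% interval for counting error only.

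Mgll encodes monoacylglycerol lipase, or MAGL, the main enzyme that breaks down the endocannabinoid 2-arachidonoylglycerol in brain. The product, arachidonic acid, is a precursor of prostaglandins, and the substrate acts on cannabinoid receptors at synapses. Accessible regions away from gene starts are candidate enhancers and other regulatory elements, many of which are open in only some cell types. The transposase used in the assay cuts open DNA, so the CPM of a region measures how accessible it was. RNA levels are likewise given as CPM, in UMIs per 1000000 UMIs, where a UMI is 1 captured RNA molecule.

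Sequences are shown for 4 members on which the results turn and for which exon sequence was at hand. Gm43999 and Gm43937 are single-exon transcripts of the class to be experimentally tested, and both lie inside Mgll. The first covers a region listed only in the wild type and 5xFAD libraries, and the second covers the Mgll region with the largest difference between those libraries among the Mgll regions listed everywhere. Gm44981 overlaps a region inside Slc6a6 that was most open in microglia and oligodendrocytes, and the Sfxn5 exon is the first exon of a non-coding transcript, Sfxn5-206, in a region most open in astrocytes. The letters come from GENCODE vM21 on GRCm38 and run 5′ to 3′ along the strand given. Capitals mark matches to the AP-1 motif TGANTCA, and lower case marks everything else.
Gm43999, chr6:88743890-88744189, plus strand: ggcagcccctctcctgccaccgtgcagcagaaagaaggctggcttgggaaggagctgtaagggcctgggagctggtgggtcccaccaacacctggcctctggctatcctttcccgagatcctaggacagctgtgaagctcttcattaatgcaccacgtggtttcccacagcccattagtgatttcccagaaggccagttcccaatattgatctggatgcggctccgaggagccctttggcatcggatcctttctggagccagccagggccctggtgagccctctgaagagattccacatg
Gm43937, chr6:88784809-88785108, minus strand: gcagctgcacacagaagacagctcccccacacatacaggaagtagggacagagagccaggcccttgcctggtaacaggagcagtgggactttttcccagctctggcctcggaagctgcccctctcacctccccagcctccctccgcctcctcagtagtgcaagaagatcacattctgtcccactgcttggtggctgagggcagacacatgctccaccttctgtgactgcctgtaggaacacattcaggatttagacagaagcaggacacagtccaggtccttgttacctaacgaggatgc
Gm44981, chr6:91712784-91713083, minus strand: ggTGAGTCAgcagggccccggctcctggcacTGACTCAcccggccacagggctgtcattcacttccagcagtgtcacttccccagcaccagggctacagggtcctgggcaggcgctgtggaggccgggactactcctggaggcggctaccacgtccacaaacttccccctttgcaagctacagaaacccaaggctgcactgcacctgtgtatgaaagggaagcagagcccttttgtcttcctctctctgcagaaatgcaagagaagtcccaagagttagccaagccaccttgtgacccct
Sfxn5-206, chr6:85320304-85320398, minus strand: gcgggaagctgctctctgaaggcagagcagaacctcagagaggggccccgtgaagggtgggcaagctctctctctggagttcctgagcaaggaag

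These sequences were searched on both strands for GAGGAAGT (PU.1), ACAAAG (Sox), TGANTCA (AP-1), CTA and TAG with any 4 bases between (MEF2), CAGATG (an E-box of NeuroD type), CC and AGGGGGC with any 3 bases between (CTCF), TTGGC and GCCAA with any 5 bases between (NFI) and TAATTA (homeobox). The matches found in the 4 were the 2 to AP-1 in Gm44981. The first 3 sequences are the middle 300 bases of the overlap between transcript and region and the last is a short exon, so the rest of each region was not searched. An AP-1 match was present in 7.85% of 31396 autosomal RefSeq promoter windows of 300 bases on GRCm38.p6. For the other motifs that share was 3.25%, 18.6%, 3.73%, 17.2%, 1.30%, 0.0382% and 5.27%, in the order just given without AP-1.

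After filtering, the libraries held 3917 to 7032 nuclei and 77033465 to 93422950 cut sites in listed peaks. Cell barcodes shared by a pair of libraries numbered 29 to 63, or 0.694% to 1.16% of the smaller library. Every library held nuclei with Xist RNA and nuclei with Y-linked RNA, and therefore at least 1 animal of each sex. Nuclei with Xist numbered 2380, 1738, 2905, 2835 and 3333 and those with Y-linked RNA 1479, 2259, 1736, 527 and 1942, in the order wild type, 5xFAD, astrocyte, neuron and global MAGL-KO, an order kept below. Hippocampal classes were recovered by their RNA markers, with 7929 dentate granule, 9415 other excitatory, 3389 inhibitory, 223 astrocyte, 1410 oligodendrocyte, 488 oligodendrocyte precursor and 397 microglia-like nuclei. Each name stands for a cluster that resembles the class by its markers. Astrocytes were few, so statements on their regions rest on small counts.

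Mgll RNA stood at 74.3, 77.7, 92.5, 92.6 and 80.5 CPM (8704, 8695, 9937, 8886 and 11290 UMIs). Against 5xFAD the median of all genes was itself higher by a log2 ratio of 0.22, 0.20 and 0.02 in the astrocyte, neuron and global MAGL-KO libraries, and these levels include that shift. Scaled by size factors, which take it out, Mgll differed from 5xFAD by 0.01, 0.03 and 0.02. In astrocytes the Mgll level was 493, 346, 483, 403 and 430 CPM, from 152, 83, 87, 75 and 52 UMIs. In excitatory nuclei it was 66.6, 71.5, 81.7, 85.2 and 71.4, in dentate granule nuclei 86.3, 83.2, 114.3, 117.4 and 106.6, and in inhibitory nuclei 83.2, 87.9, 99.2, 89.3 and 86.6. Oligodendrocytes, at 27.0 to 61.5 CPM, and their precursors, at 126.2 to 187.9, gave fewer UMIs. In microglia-like nuclei it was 326, 111, 142, 154 and 100.2, from 31, 24, 36, 24 and 20 UMIs, so wild type was the highest there. The microglia-like nuclei came from a pair of clusters, and the one led by Ctss, Ly86 and C1qa held 0 wild type nuclei beside 56, 78, 38 and 49 in the other libraries. Its part in the microglia values was not tested. The counts come from 3′ tags and the deleted part is not known here, so they do not check the deletion, and the libraries are called by their labels throughout.

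Mgll spans chr6:88724412-88828360 on the plus strand, 103.949 kb, and 20 of the 1001 members lay inside it. Of these, 11 were listed in all 5 libraries. The rule left out the peak at the gene's start and also chr6:88726311-88727382, which every library but the global MAGL-KO listed. The most open member was chr6:88736416-88737325, in the first part of the gene, with 18.5, 17.8, 16.4, 17.2 and 15.3 CPM. It was followed by chr6:88759569-88760491 with 15.9, 17.2, 15.8, 15.1 and 14.6 CPM, and by chr6:88741645-88742546 with 13.3, 14.3, 12.7, 11.6 and 11.9 CPM. In each of these 3 regions the library labelled global MAGL-KO was the lowest or next to it.

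In all 11 Mgll members listed everywhere, the library labelled global MAGL-KO stood below 5xFAD, by a median log2 ratio of -0.21 and a range of -0.37 to -0.06. For comparison, 45.4% of autosomal regions of 3 CPM or more listed in all libraries were below 0 in the same comparison. The largest such difference was at chr6:88811087-88812036, near the end of the gene, where the libraries held 6.49, 8.13, 8.43, 7.53 and 6.29 CPM, a log2 ratio of -0.37 (-0.60 to -0.13). The wild type was about as low there, so the global MAGL-KO library did not stand apart from both others. Among excitatory and dentate granule nuclei together 10 of the 11 were below 0 (50.9% of the same autosomal regions), with a median of -0.26. Among nuclei with Xist 11 of 11 were (48.8%), with a median of -0.19. Among nuclei with Y-linked RNA 10 of 11 were (46.9%), with a median of -0.12. Neighbouring regions of 1 gene are not independent, so the 11 are not replicates of the condition.

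The other MAGL-KO libraries showed the same sign less uniformly, and share the 5xFAD library as their reference. In the astrocyte MAGL-KO 8 of the 11 were below 0 (36.4% of the same autosomal regions), with a median of -0.11, and in the neuron MAGL-KO 8 of 11 (48.1%), with a median of -0.17. Among nuclei with Y-linked RNA the astrocyte MAGL-KO had 6 of 11 below 0 (41.0% of autosomal regions) and a median of -0.00025, beside 0.064 over those autosomal regions. Among those with Xist it had 8 (41.3%) with a median of -0.08, and among excitatory and dentate granule nuclei together 8 (41.5%) with -0.13. The neuron MAGL-KO had 6 among nuclei with Y-linked RNA (50.2%), with a median of -0.30, and 7 among those with Xist (48.2%), with -0.14. Among excitatory and dentate granule nuclei together it had 8 (50.4%), with -0.18. Between 5xFAD and wild type 3 of 11 were below 0 (57.0%) and the median was 0.08. Against wild type instead of 5xFAD, 7 of 11 were below 0 in the astrocyte MAGL-KO library (41.9% of the autosomal regions), 7 in the neuron (54.4%) and 9 in the global one (51.2%), with medians of -0.03, -0.05 and -0.12. All these differences were far below 2-fold.

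The widest contrast between 5xFAD and wild type inside Mgll was at chr6:88784544-88785373, the region of Gm43937 printed above. It held 4.97 CPM in wild type and 6.95 in 5xFAD, and 5.94, 5.40 and 5.73 in the MAGL-KO libraries. The log2 ratio of 5xFAD to wild type was 0.48 (0.22 to 0.75). All 4 libraries carrying 5xFAD were thus above wild type, and the 3 labelled MAGL-KO lay between the others. In contrast, the coding exon at chr6:88809348-88810282 held 8.83, 8.65, 8.62, 8.68 and 8.10 CPM, and the UTR exon at chr6:88827330-88828220 held 9.18, 9.97, 10.5, 8.85 and 9.54, with no library standing apart in either.

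**Figure D1:**
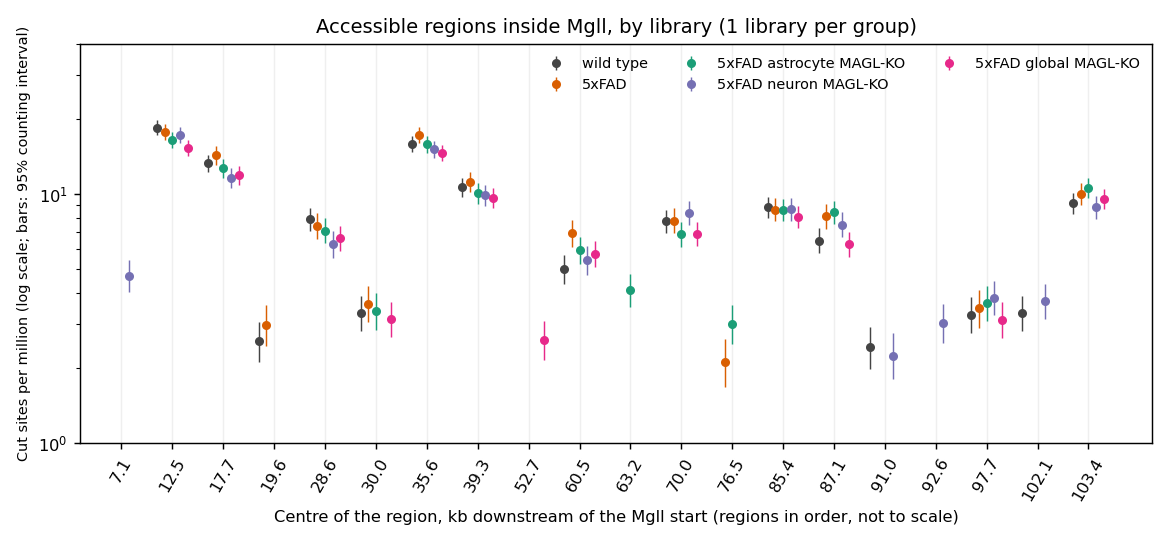
CPM of cut sites (log scale) in each library that listed the region, for the members inside Mgll in order along the gene. The x axis labels give the distance of the centre of the region from the Mgll start in kb, and bars are 95% counting intervals. The 5 libraries overlap at most regions, and a region with fewer points was not listed in the missing libraries.

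Of the other 9 Mgll members, chr6:88753939-88754881 lacked a value in the neuron MAGL-KO library and held 3.32, 3.62, 3.38 and 3.14 CPM in the rest. Another 4 were listed in 1 library each, at 2.58 to 4.68 CPM, with 1 in the astrocyte, 2 in the neuron and 1 in the global MAGL-KO. Listing by a single library was found for 3.05%, 3.36%, 1.29%, 4.16% and 4.17% of autosomal regions, in the order of libraries above. A further 3 were listed in a pair that mixed labels. A single member, chr6:88743533-88744545, was listed in wild type and 5xFAD only, at 2.55 and 2.97 CPM. It is the region of Gm43999 printed above. A library that does not list a region gives no value there, which is not a 0.

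The region chr6:88743533-88744545 was most open in astrocytes, at 21.3 CPM from 30 cut sites against 2.23 in excitatory and 3.17 in dentate granule nuclei. In the astrocytes of wild type it held 8 cut sites, 9.38 CPM (2.56 to 24.0), and in those of 5xFAD 22, 39.5 CPM (19.7 to 70.7). The intervals overlap. The astrocyte, neuron and global MAGL-KO libraries held 47, 28 and 32 astrocytes, and no value at the region.

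Along Mgll the class of highest accessibility changed. Dentate granule nuclei led at chr6:88736416-88737325, with 29.5 CPM against 15.96 in excitatory nuclei, and at chr6:88763315-88764193, with 17.6 against 9.79. Excitatory nuclei led at chr6:88741645-88742546, with 15.8 CPM against 6.56 in dentate granule nuclei. The downstream end of the gene was most open in microglia-like nuclei, which reached 48.1 CPM at chr6:88811087-88812036, 31.6 at chr6:88814962-88815878, 62.0 at chr6:88826116-88826909 and 40.5 at chr6:88827330-88828220. Between them chr6:88821605-88822582 was led by oligodendrocytes at 27.2 CPM, against 2.08 in dentate granule and 2.28 in excitatory nuclei. In all, 6 Mgll members were highest in microglia-like nuclei, 3 in astrocytes, 3 in excitatory, 2 in dentate granule and 2 in oligodendrocytes. Inhibitory nuclei and oligodendrocyte precursors led at 1 each, while 2 held too few cut sites to rank. Over ranked autosomal regions these classes led at 7.10%, 7.97%, 35.6%, 25.4%, 5.63%, 10.8% and 7.41%, in that order. Some leads were narrow. At chr6:88787325-88787935 astrocytes held 6.589 CPM, from 3 cut sites, against 6.581 in inhibitory nuclei. The 397 microglia-like nuclei gave 151 cut sites at chr6:88811087-88812036 and 127 at chr6:88827330-88828220, so their lead there does not rest on a few counts. The values at chr6:88814962-88815878 and chr6:88826116-88826909 come from fewer nuclei. Only wild type and the neuron MAGL-KO listed these regions, with 43 and 52 microglia-like nuclei.

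Over the whole window the members had a median width of 922 bp. They lay 530 upstream and 471 downstream of the Mgll start. The rule removed only the deposited gene positions, so 33 members held another annotated transcript start and 11 overlapped a RefSeq promoter window. Introns of protein-coding genes held 405, intergenic sequence 352, coding exons 107, introns of non-coding genes 60, non-coding exons 47 and UTR exons 30. The genes with most members were Exoc6b, an exocyst subunit, with 49, Antxr1, an anthrax toxin receptor, with 35, Chchd6 with 31, Aldh1l1, a folate enzyme used as an astrocyte marker, with 25, Dysf with 24, Sfxn5 with 23 and Prickle2 with 22. The most open member by mean level was chr6:86471942-86472845, in a UTR exon of C87436, with 67.8, 71.7, 67.9, 62.5 and 62.5 CPM. Next came chr6:86584869-86585668 with 33.0, 33.3, 31.1, 31.8 and 29.2 CPM. In each of them the libraries differed by far less than the regions did.

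Members were ranked by class for the 779 that held at least 250 cut sites in the named classes. Excitatory nuclei were highest in 30.9%, dentate granule in 20.8%, astrocytes in 12.5%, oligodendrocytes in 11.3%, inhibitory nuclei in 10.4%, oligodendrocyte precursors in 9.11% and microglia-like nuclei in 5.01%. Over autosomal regions chosen by the same rule these shares were 35.6%, 25.4%, 7.97%, 5.63%, 10.8%, 7.41% and 7.10%. Regions at least 4-fold above all other nuclei numbered 46 in astrocytes (5.91%, against 2.74% on autosomes), 45 in oligodendrocytes (5.78%, against 3.02%), 32 in precursors (4.11%, against 2.55%) and 15 in microglia-like nuclei (1.93%, against 2.37%). Dentate granule nuclei had 8 (1.03%, against 1.6%), inhibitory nuclei 5 (0.642%, against 0.766%) and excitatory nuclei 0 (against 0.533%). The glial shares and counts depended on how nuclei were assigned. By marker scores astrocytes were highest in 11.55% of members (10.42% on autosomes) and oligodendrocytes in 15.28% (7.55%). Precursors were highest in 7.45% (7.72%) and microglia-like nuclei in 6.68% (8.10%). With classes taken from marker scores instead of clusters, 5 members were 4-fold higher in astrocytes (0.642%, against 0.559% on autosomes), 37 in oligodendrocytes (4.75%, against 2.65%), 14 in precursors (1.80%, against 1.19%) and 8 in microglia-like nuclei (1.03%, against 1.19%). Neighbouring regions are not independent, and these shares are descriptions.

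The strongest astrocyte regions lay in Sfxn5, which encodes a mitochondrial sideroflexin. There chr6:85302081-85303038 held 133 CPM in astrocytes, from 337 cut sites, against 1.54 in excitatory nuclei, and chr6:85320146-85321168, whose exon is printed above, held 98.0 against 0.674. Sfxn5 RNA was also highest in astrocytes, at 842 CPM against 63.9 in excitatory and 15.8 in oligodendrocyte nuclei. Across libraries the first of these regions held 3.24, 3.13, 3.82, 3.42 and 3.12 CPM, with no library apart. The second was not listed in the astrocyte MAGL-KO library and held 1.997, 1.93, 1.85 and 1.56 CPM in the other 4.

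An intron of Aldh1l1 held a region open in all macroglia. At chr6:90534847-90535929 astrocytes stood at 83.1 CPM, oligodendrocyte precursors at 57.6 and oligodendrocytes at 52.2, against 0.631 in excitatory nuclei. Aldh1l1 RNA was more restricted, at 93.7 CPM in astrocytes, 4.79 in oligodendrocytes and 1.41 in precursors. Aldh1l1 was among the markers used to name the astrocyte class, so its high RNA there follows in part from that choice. The region held 3.57, 3.67, 2.61, 3.98 and 2.06 CPM over the libraries, and the global MAGL-KO lay below 5xFAD by a log2 ratio of -0.84 (-1.23 to -0.45). The share of oligodendrocyte-lineage and astrocyte nuclei also differed between libraries. Astrocytes numbered 70, 46, 47, 28 and 32, or 1.40%, 0.93%, 0.80%, 0.71% and 0.46% of the library's nuclei. Oligodendrocytes numbered 312, 306, 308, 266 and 218, or 6.22%, 6.17%, 5.26%, 6.79% and 3.10%. Precursors made up 2.31%, 1.65%, 1.49%, 2.88% and 1.28%. The part of these shares in the ratio was not tested.

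Oligodendrocyte regions included chr6:86186117-86187261, 7.96 kb from Tgfa, with 61.5 CPM, and chr6:83857020-83858016, 25.3 kb from Paip2b, with 62.3 CPM. Tgfa encodes a ligand of the epidermal growth factor receptor, and its RNA was highest in oligodendrocyte precursors, at 197 CPM, and in microglia-like nuclei, at 145. A microglia region lay inside the same gene, chr6:86258989-86259777, with 75.8 CPM in microglia-like nuclei and 0.237 in excitatory ones. It was listed in 5xFAD and the astrocyte MAGL-KO library only, at 1.08 and 1.63 CPM. Those libraries held 85 and 122 microglia-like nuclei against 43, 52 and 95 in wild type and the neuron and global MAGL-KO. The part of these numbers in the listing was not tested.

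Slc6a6, the taurine transporter, held the member of Gm44981, chr6:91712588-91713489. It reached 88.0 CPM in microglia-like nuclei and 51.7 in oligodendrocytes, against 3.10 in excitatory and 4.70 in dentate granule nuclei. Slc6a6 RNA was highest in the same classes, at 206 and 175 CPM, though neurons were not far below, with 133 in dentate granule and 99.1 in excitatory nuclei. The region held 5.19, 5.48, 6.32, 6.41 and 5.21 CPM over the libraries. The leading precursor region was chr6:93139965-93140993, 196.5 kb from Adamts9, at 79.3 CPM in precursors and 2.04 in excitatory nuclei.

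**Figure D2:**
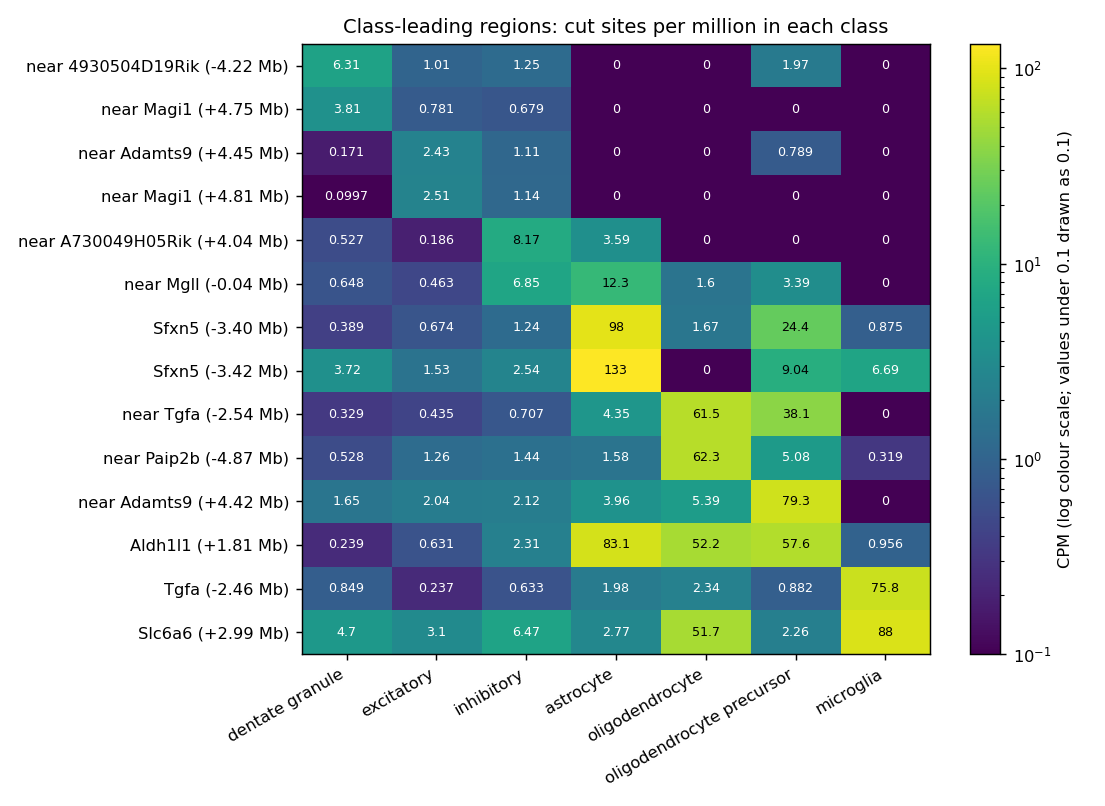
CPM of cut sites in each cell class (columns, colour on a log scale, values under 0.1 drawn as 0.1) for the members with the highest ratio in each class (rows). Glial regions reach 57.6 to 133 CPM in the class they were chosen for, and neuronal regions 2.43 to 8.17. Since the ratio is to all other nuclei together, a single other class can be higher, as astrocytes are at the Aldh1l1 region among those of precursors.

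Neuronal regions were less extreme. The leading dentate granule region was chr6:84500387-84501350, with 6.31 CPM against 1.01 in excitatory nuclei, and it was listed in the 3 MAGL-KO libraries only. In those libraries it held 12.5, 16.5 and 17.3 CPM in the dentate granule cluster led by Pappa, Penk and Col27a1 described below, and 1.91, 1.97 and 4.33 in the other dentate granule nuclei. The leading excitatory regions, chr6:93172264-93173325 and chr6:93531791-93532771, held 2.43 and 2.51 CPM. At chr6:88683135-88684217, which lies 40.2 kb upstream of Mgll, inhibitory nuclei stood at 6.85 CPM from 494 cut sites, against 0.463 in excitatory nuclei. Astrocytes were higher there, at 12.3 CPM, from 31 cut sites.

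Whether a library listed a region was the first of the comparisons between groups. Of the 1001 members, 577 (57.6%) were listed in all 5 libraries, against 56.5% of the 174994 autosomal regions chosen by the same rule. Another 81 (8.09%, against 9.44%) were listed in 4, 80 (7.99%, against 8.37%) in 3, 89 (8.89%, against 9.66%) in 2 and 174 (17.4%, against 16%) in 1. The 174 were weaker, with a median of 1.45 CPM against 3.85 for those listed in all. The 3 MAGL-KO libraries alone listed 18 members (1.80%, against 1.4% on autosomes), and wild type and 5xFAD alone listed 14 (1.40%, against 1.33%). Both shares were near the autosomal ones. Members listed by a single library numbered 37 in wild type (3.70%, against 3.05%), 33 in 5xFAD (3.30%, against 3.36%), 22 in the astrocyte (2.20%, against 1.29%), 39 in the neuron (3.90%, against 4.16%) and 43 in the global MAGL-KO (4.30%, against 4.17%).

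Of the 18 listed in the MAGL-KO libraries alone, 8 of the 14 that could be ranked by class were highest in dentate granule nuclei (57.1%, against 37.0% of autosomal regions with the same listing). The 3 with the highest mean were chr6:91245539-91246381, an intron of the extracellular matrix gene Fbln2, with 3.41, 3.43 and 3.49 CPM, chr6:92451154-92452184, an intron of the planar polarity gene Prickle2, with 3.33, 3.34 and 2.72, and chr6:84002512-84003622 near Dysf, with 2.503, 2.27 and 3.08. Of the 14 listed in wild type and 5xFAD alone, 1 of the 8 that could be ranked was highest in dentate granule nuclei (12.5%, against 18.7%). They were led by chr6:91718312-91719085, an intron of Slc6a6 that was highest in microglia-like nuclei, with 7.40 and 6.95 CPM. The next were chr6:84585159-84586078, an intron of the retinoic acid hydroxylase gene Cyp26b1, with 3.21 and 2.53, and chr6:88743533-88744545 of Gm43999.

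Ratios between libraries were compared for members listed in both with at least 50 cut sites over the pair, and 2-fold either way was taken as past the threshold. Between 5xFAD and wild type, 2 of 666 members were past it (0.3003%, against 0.237% on autosomes), and the median log2 ratio was -0.01. In the astrocyte MAGL-KO against 5xFAD 2 of 628 were (0.318%, against 0.615%), with a median of 0.08. In the neuron MAGL-KO against 5xFAD 5 of 649 were (0.770%, against 1.05%), all higher (0.836% on autosomes), with a median of 0.02. In the global MAGL-KO against 5xFAD 5 of 662 were (0.755%, against 0.889%), 4 higher (0.672% on autosomes) and 1 lower (0.218%), with a median of 0.03. None of these shares was far above the autosomal one, and the 3 MAGL-KO comparisons share the 5xFAD library.

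**Figure D3:**
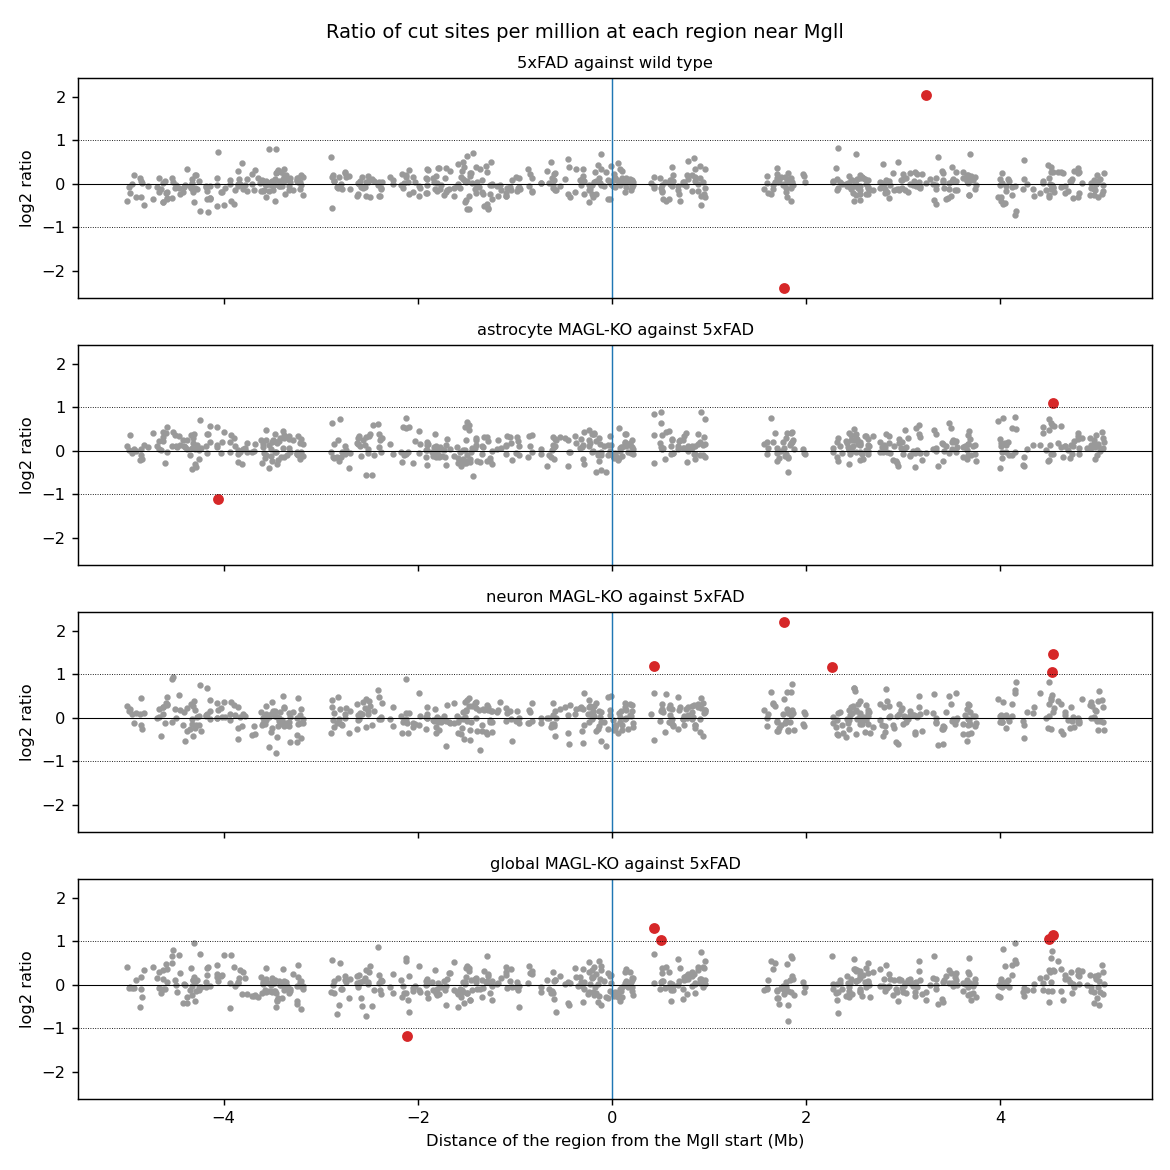
The log2 ratio of CPM at each member (y axis) against its distance from the Mgll start in Mb (x axis), with 1 panel per comparison and dotted lines at 2-fold. Points past 2-fold number 2, 2, 5 and 5 and are scattered over the window.

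These 14 ratios came from 10 members. Where the peaks called in a library were shorter, fewer cut sites could be counted, and 5 of the 14 remained past 2-fold per kb of listed peak. Without the dentate granule cluster described below, 10 of the 14 remained. The share past 2-fold was then 0.159% in the astrocyte MAGL-KO (0.537% on autosomes), 0.462% in the neuron (0.718%) and 0.906% in the global (0.704%). The lowest ratio of 5xFAD to wild type was at chr6:90501129-90502037, an intron of Aldh1l1, with 1.71 CPM in wild type and 0.325 in 5xFAD, a log2 ratio of -2.40. The peak covered 0.899 kb in wild type and 0.241 kb in 5xFAD, and per kb the ratio was -0.50. The highest was at chr6:91960384-91961337 near Fgd5, with 0.455 CPM in wild type and 1.86 in 5xFAD, a log2 ratio of 2.03, with 0.329 and 0.890 kb covered and 0.59 per kb.

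The same held for several of the MAGL-KO ratios. At chr6:89161784-89162653, near Gm1965, the libraries held 2.41, 2.30, 2.92, 5.23 and 5.67 CPM, and the neuron and global MAGL-KO were above 5xFAD by log2 ratios of 1.19 and 1.30. The peak covered 0.344, 0.459, 0.396, 0.829 and 0.832 kb, and per kb the ratios were 0.33 and 0.45. In Exoc6b, chr6:84660805-84662211 was lower in the astrocyte MAGL-KO by a log2 ratio of -1.11, which became 0.31 per kb. At chr6:86610582-86611422, near Asprv1, the global MAGL-KO was lower by -1.18, or -0.40 per kb.

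In contrast, chr6:93226179-93227116 was covered to a like length in every library, 0.878 to 0.920 kb. It held 1.90, 1.53, 2.53, 2.71 and 3.17 CPM, and the MAGL-KO libraries were above 5xFAD by log2 ratios of 0.72, 0.82 and 1.05. All 3 were above both other libraries. Another region of the same non-coding gene, chr6:93255897-93256835, held 1.23, 1.21, 2.51 and 2.08 CPM in the libraries that listed it, without the astrocyte MAGL-KO. A further neighbour, chr6:93253094-93254327, held 1.85, 1.70, 2.62, 2.34 and 2.58 CPM. Its global MAGL-KO ratio, 0.60, became 0.31 per kb. Other regions of that non-coding gene differed in direction. The log2 ratios of the MAGL-KO libraries to 5xFAD were -0.23, -0.23 and -0.15 at chr6:93217747-93218706 and -0.22, 0.04 and -0.40 at chr6:93223648-93224637. At chr6:93229992-93231029 they were 0.46, 0.31 and 0.33. The log2 ratio of chr6:93255897-93256835 in the neuron MAGL-KO was 1.06 (0.54 to 1.59), and 0.58 without the dentate granule cluster described below.

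Members where all 3 MAGL-KO libraries were above both others numbered 108 of the 577 listed everywhere (18.7%, against 19.9% on autosomes), and those below both numbered 65 (11.3%, against 11%). With a gap of at least 1.5-fold between the nearest libraries, 1 member remained above (0.173%, against 0.645%) and 0 below (against 0.0486%). That member also passed at 2-fold, where the autosomal shares were 0.0496% above and 0.0111% below. In 1 Mb steps along the chromosome, the median log2 ratio of the 10 bins in the window ranged from -0.11 to 0.05 in 5xFAD against wild type, 0.02 to 0.12 in the astrocyte, -0.02 to 0.08 in the neuron and -0.07 to 0.11 in the global MAGL-KO against 5xFAD. Elsewhere on chr6 the bins with at least 20 compared regions ranged from -0.17 to 0.08, -0.04 to 0.25, -0.13 to 0.20 and -0.09 to 0.27, and the window's bins lay inside those ranges.

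**Figure D4:**
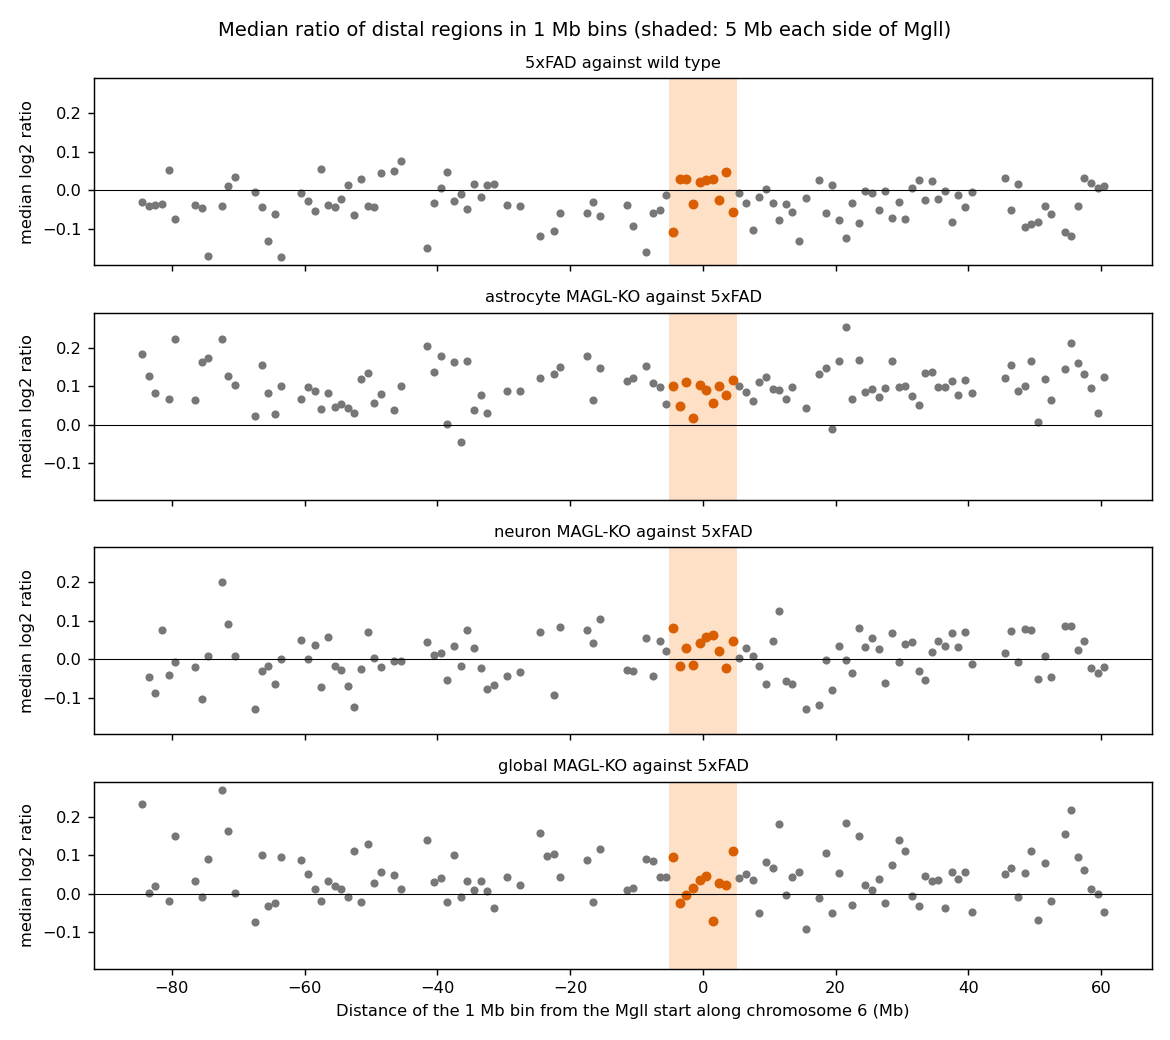
Median log2 ratio in 1 Mb bins along chromosome 6 (y axis) against the distance of the bin from the Mgll start in Mb (x axis). Each comparison has 1 panel, and the window is shaded. Distal here means not overlapping a deposited gene position widened by 1 kb. The 10 window bins (orange) lie inside the range of the 103 to 106 other bins with at least 20 compared regions (grey) in each panel.

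The single member that set the 3 MAGL-KO libraries apart was chr6:93266631-93267523, in an intron of the non-coding gene 9530026P05Rik, 4.54 Mb downstream of the Mgll start and 323.1 kb from Adamts9, which encodes a secreted metalloprotease. It held 1.84, 1.75, 3.74, 4.80 and 3.83 CPM. The log2 ratios to 5xFAD were 1.09 (0.67 to 1.53), 1.45 (1.05 to 1.87) and 1.13 (0.72 to 1.56), and the peak covered 0.785 to 0.860 kb in every library. The region was chosen here for this pattern, so these values are a description. The next member downstream, chr6:93269644-93270513, was listed in wild type and 5xFAD only, at 1.03 and 1.23 CPM. The one after that, chr6:93273686-93274601, held 4.46, 4.18, 3.99, 4.60 and 5.23 CPM and did not show the pattern.

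The call of the nuclei by Xist or Y-linked RNA moved with the result at chr6:93266631-93267523. The 2 sets come from different animals of unknown number, so sex and animal cannot be told apart. In nuclei with Xist the region held 2.07, 1.80, 5.03, 5.78 and 5.78 CPM. In nuclei with Y-linked RNA it held 1.99, 1.85, 2.35, 1.79 and 1.76 CPM. The higher level in the neuron and global MAGL-KO libraries was thus seen in the Xist nuclei. In the Y-linked nuclei the log2 ratios of those libraries to 5xFAD were -0.050 (-1.38 to 1.10) and -0.073 (-0.94 to 0.77), with wide intervals. The difference between the sets of nuclei was not tested. Over all members with at least 200 cut sites in a library, Xist and Y-linked nuclei differed by 2-fold or more at 0 of 346 in wild type (0.0756% on autosomes), 0 of 330 in 5xFAD (0.203%), 1 of 373 in the astrocyte (1.28%), 12 of 399 in the neuron (3.83%) and 10 of 407 in the global MAGL-KO (3.45%). Each of these shares was below the autosomal one. With at least 50 cut sites the members' share in 5xFAD was 2.99%, level with 2.97% on autosomes, and it was below the autosomal one in the other 4 libraries.

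A cluster of dentate granule nuclei led by Pappa, Penk and Col27a1 moved with it too. This cluster made up 1.91%, 1.88%, 22.6%, 26.4% and 32.5% of dentate granule nuclei. Among those with Xist the share was 2.16%, 2.09%, 35.7%, 32.1% and 59.0%, and among those with Y-linked RNA 1.28%, 1.98%, 1.95%, 2.73% and 1.97%. Within the cluster chr6:93266631-93267523 held 17.7, 12.4, 14.7, 20.8 and 18.5 CPM (8, 4, 73, 107 and 123 cut sites), and in the other dentate granule nuclei 2.69, 3.04, 4.40, 2.58 and 2.43. The wild type and 5xFAD values rest on 8 and 4 cut sites. Without the cluster the log2 ratios to 5xFAD were 0.83, 1.12 and 0.67.

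**Figure D5:**
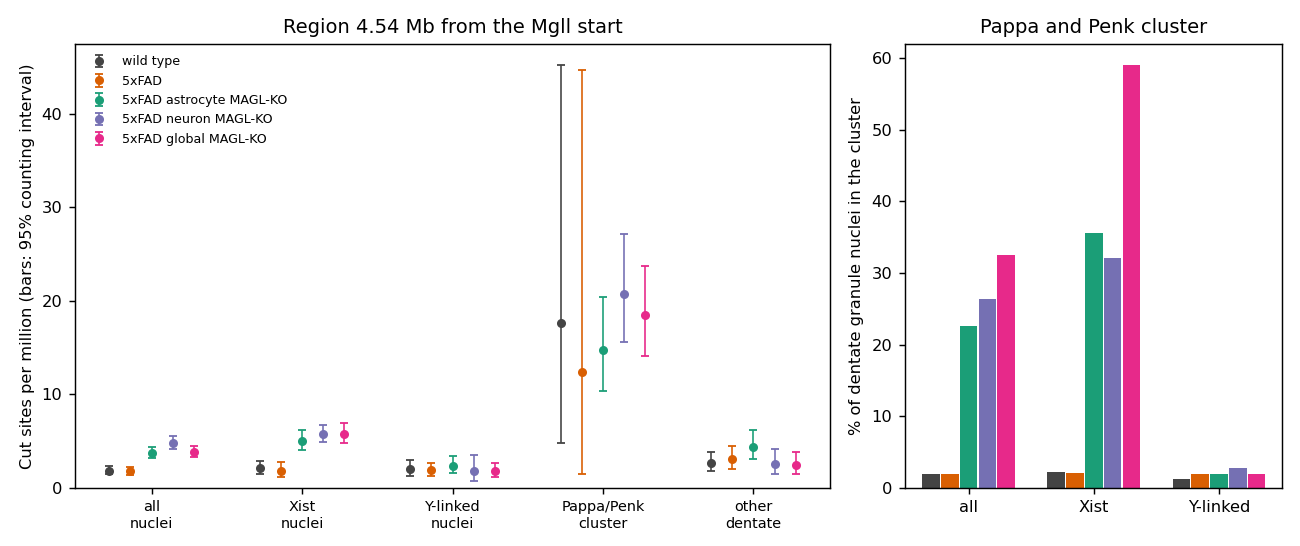
Left, CPM of cut sites at the region 4.54 Mb from the Mgll start in each library, for all nuclei, nuclei with Xist, nuclei with Y-linked RNA, the Pappa and Penk cluster and the other dentate granule nuclei, with 95% counting intervals. Right, the percent of dentate granule nuclei in the cluster, which reaches 22.6% to 32.5% in the libraries labelled MAGL-KO and stays under 3% among their Y-linked nuclei.

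The cluster's own accessibility near Mgll was compared with the other dentate granule nuclei of the same library. Of 322 members that could be compared in all 3 MAGL-KO libraries, 20 were at least 2-fold higher in the cluster in each (6.21%, against 6.34% on autosomes) and 6 lower (1.86%, against 4.68%). The member nearest to Mgll among the 20 was chr6:88710996-88711890, 12.5 kb upstream of the gene, with 9.69 against 2.04 CPM in the astrocyte, 18.1 against 1.82 in the neuron and 10.1 against 1.71 in the global MAGL-KO library. Over all nuclei the same region held 2.75, 2.73, 2.99, 3.86 and 3.17 CPM. Of the 18 members listed in the MAGL-KO libraries alone, 5 were among the 20 (27.8%, against 13.0% of autosomal regions with that listing).

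In Fbln2, chr6:91215185-91216125 held 11.1 against 3.77, 25.2 against 3.03 and 13.8 against 2.95 CPM. Fbln2 is among the 10 leading genes of the cluster, which was made from RNA, so its RNA there, 72.0, 107 and 82.6 CPM against 4.79, 2.93 and 3.61 in the other dentate granule nuclei of the same libraries, follows from the choice of the cluster and supports nothing. Among the lower members, chr6:86326622-86327546 near Fam136a held 10.9 against 24.0, 8.15 against 29.3 and 6.46 against 23.0 CPM. The astrocyte, neuron and global MAGL-KO values are given in that order.

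RNA of the genes in the window gave a second readout. Of genes with at least 100 UMIs over the pair, 0 of 103 differed by 2-fold between 5xFAD and wild type (0.571% over all genes), 2 of 105 in the astrocyte (3.97%), 5 of 105 in the neuron (4.41%) and 1 of 107 in the global MAGL-KO against 5xFAD (1.61%). The median log2 ratios were 0.00, 0.25, 0.20 and 0.04, beside 0.00, 0.22, 0.20 and 0.02 over all genes, so the astrocyte and neuron MAGL-KO values below include a shift of all genes, and those named keep their sign when it is subtracted. The neuron MAGL-KO share, 4.76%, was near that of all genes, and the other 3 were below it.

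Fbln2, a fibulin of the extracellular matrix, was higher in all 3 MAGL-KO libraries, by log2 ratios of 0.98, 1.59 and 1.31. Without the Pappa and Penk cluster, of which Fbln2 is itself a leading gene, these were 0.68, 1.19 and 0.93, and no gene of the window was then past 2-fold in the global MAGL-KO. Leaving out nuclei chosen partly by this gene, most of them in the MAGL-KO libraries, had to lower its ratios. In nuclei with Xist it stood at 7.59, 7.47, 16.8, 23.1 and 23.7 CPM and in those with Y-linked RNA at 4.97, 6.06, 8.24, 6.68 and 5.86. The wild type also held more in its Xist nuclei, and the difference between the sets of nuclei was not tested. The non-coding genes A730049H05Rik, at 1.09 and 1.37, and Gm44012, at 1.19 and 1.39, were higher in the astrocyte and neuron MAGL-KO. With size factors these became 0.85 and 1.14 for A730049H05Rik and 0.95 and 1.16 for Gm44012, so both were under 2-fold in the astrocyte MAGL-KO. Egr4, an immediate early transcription factor, was lower in all 3, at -0.85, -0.40 and -0.74, and with size factors at -1.09 in the astrocyte MAGL-KO, where it was then the one gene past 2-fold. Antxr1, an anthrax toxin receptor, stood at -0.22, -0.36 and -0.36 in the 3, and at -0.47, -0.59 and -0.39 with size factors. Between 5xFAD and wild type 9530026P05Rik stood at 65.0 CPM in 5xFAD and 93.8 in wild type, a log2 ratio of -0.53. Its log2 ratios to 5xFAD in the MAGL-KO libraries were 0.25, -0.021 and 0.60, and with size factors 0.0059, -0.25 and 0.57. With size factors it was thus level in the astrocyte MAGL-KO and lower in the neuron MAGL-KO, where the region in its intron was highest. Between 5xFAD and wild type Aldh1l1 stood at 1.31 and 0.853, a log2 ratio of 0.62.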

How the data were processed

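Single-nucleus multiome libraries of mouse hippocampus, 1 per group, were used as deposited by the authors: UMI counts per gene and transposase cut-site counts per peak, in nuclei by feature matrices. Cell Ranger ARC 2.0.0 made these counts, per the file headers, and the submitters' processing notes also list Seurat and the build mm10, without a role. Peaks were called per library. Coordinates are 1-based.

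A nucleus was kept if it had 500 or more genes and no more than 5% of its UMIs from mitochondrial genes. The automatic Scrublet threshold marked 0, 2, 1, 0 and 2305 nuclei and was not used. Instead the nuclei with the highest scores were removed, at 0.8% per 1000 nuclei. Classes were named from RNA clusters (scanpy 1.11.5, leidenalg 0.10.2) by markers. Nuclei were called by Xist or by Ddx3y, Uty, Eif2s3y and Kdm5d at 3 or more UMIs.

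CPM is cut sites per 1000000 of the library's listed-peak cut sites in used nuclei. Of nonzero entries 83.7% to 85.3% were even, so intervals (exact Clopper-Pearson or Poisson, scipy 1.17.1) count pairs of cut sites. These reads are not independent molecules, so intervals cover counting error only. The comparison code was run on simulated data first.

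Regions named were: those in Mgll, the 3 highest and 3 lowest ratios per comparison with at least 100 cut sites, the 5 highest means, the 2 leading per class, 3 per exclusive listing pattern, and the 5 with the widest range. Neighbours and cluster regions were added after their values were seen. The members and lists were chosen with earlier results of these data known. Alternatives were other thresholds, windows, merging, totals, kb covered and nuclei subsets.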

Additional observations from a re-analysis of the deposited data

Results flagged for a closer look

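Ratios were searched at the named regions in Mgll, with the highest or lowest ratios, or with the widest range. Of the 117 that could be computed in both sets of nuclei, 9 at 6 members were opposite in the following sense. At these members the log2 ratio in nuclei with Xist and that in nuclei with Y-linked RNA had opposite signs, with the Xist value past 2-fold and at least 1 of the intervals without 0. Over all members, ratios of opposite sign with at least 1 past 2-fold made up 0.913%, 2.24%, 3.81% and 3.34% in 5xFAD against wild type and the astrocyte, neuron and global MAGL-KO against 5xFAD, and 1.51%, 2.65%, 4.71% and 2.73% over autosomal regions. The named regions were partly chosen for large ratios. The difference between the sets of nuclei was not tested, and each library has an unknown number of animals. The region chr6:93266631-93267523 was higher in the neuron MAGL-KO against 5xFAD at 1.69 (1.02 to 2.43) in Xist nuclei and -0.050 in Y-linked nuclei, and in the global MAGL-KO at 1.69 (1.00 to 2.44) and -0.073. Its neighbour chr6:93226179-93227116 stood at 1.17 (0.30 to 2.14) and -0.12 (-0.95 to 0.69) in the astrocyte MAGL-KO and at 1.22 (0.39 to 2.16) and -1.08 (-2.89 to 0.34) in the neuron MAGL-KO.

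The other 4 had these values. At chr6:85193627-85194535, near the cortical homeobox gene Emx1, the astrocyte MAGL-KO ratio to 5xFAD was -1.05 in Xist and 0.24 in Y-linked nuclei. At chr6:87368856-87369792, near Gkn2, the ratio of 5xFAD to wild type was 1.01 and -0.029, and that of the neuron MAGL-KO to 5xFAD -1.37 and 0.22. At chr6:89640646-89641610, near Txnrd3, the global MAGL-KO ratio was 1.15 and -0.49, and at chr6:92883126-92884049, in Adamts9, the neuron MAGL-KO ratio was 1.40 (0.40 to 2.56) and -0.15 (-1.73 to 1.17). The Xist nuclei of 5xFAD enter all 9 of these ratios.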

How the results depend on the processing

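No paired analysis was possible because every group was a single library and the labels pair none of them. The alternatives were run at the named regions in Mgll, with the highest or lowest ratios, or with the widest range. Of the ratios under the alternatives, 725 lay within the counting interval of the reported ratio, 33 of them with the other sign. Another 97 lay outside it, 44 with the other sign. Of the 84 that were past 2-fold to begin with 3 changed sign, and of the 741 under 2-fold 77 did. The 3 were chr6:84660805-84662211 in the astrocyte MAGL-KO, at 0.31 per kb covered, and chr6:93266631-93267523 in Y-linked nuclei, at -0.050 and -0.073. Among the same named regions, partly chosen for large ratios, the share of ratios past 2-fold was 10.2% as reported. It was 2.54% per kb and 20.3% in Xist nuclei, where the autosomal shares given below were also higher. Members listed by the MAGL-KO libraries alone were 0.510% within 2 Mb of Mgll.

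The percent of members past the threshold moved as follows. At 1.5-fold it was 2.85, 3.82, 4.78 and 4.83 in 5xFAD against wild type and in the astrocyte, neuron and global MAGL-KO against 5xFAD. On autosomes it was then 3.05, 6.11, 7.22 and 6.74. In excitatory and dentate granule nuclei together it was 0.758, 0.959, 1.25 and 1.67 (autosomes 0.574, 1.11, 1.82 and 1.30), so above the autosomes in 5xFAD and the global MAGL-KO. In Xist nuclei it was 1.82, 3.03, 3.54 and 4.39 (2.58, 4.51, 3.83 and 4.97), and in Y-linked nuclei 0.909, 1.44, 4.92 and 1.67 (1.67, 2.44, 6.85 and 2.20). Per kb it was 0, 0 and 0.302 in 5xFAD, the astrocyte and the global MAGL-KO (0.0603, 0.414 and 0.593), and with at least 200 cut sites it was 0 in 5xFAD (0.156). Without the Pappa and Penk cluster, an alternative added after seeing the data, it was 0.159 in the astrocyte and 0.462 in the neuron MAGL-KO, with the autosomal shares in the text. Within 2 Mb it was 0 in the astrocyte MAGL-KO. The subsets hold fewer nuclei, hence fewer cut sites per region, and for the other settings the cause was not tested.

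With classes taken from marker scores, excitatory nuclei led at 26.7% and oligodendrocytes at 15.3% of members (29.7% and 7.55% on autosomes), and the percent 4-fold higher was 0.642 in dentate granule (1.33), 0.642 in astrocyte, 1.80 in precursor and 1.03 in microglia-like nuclei. For RNA, size factors in place of totals gave 0.952% in the astrocyte and 2.86% in the neuron MAGL-KO (1.875% and 2.15% over all genes). In the astrocyte MAGL-KO the 2 genes higher gave way to 1 lower, Egr4. The medians became 0.01 and -0.03. Excitatory and dentate granule nuclei together gave 3.13% in the neuron MAGL-KO (4.33% over all genes). Leaving out the Pappa and Penk cluster gave 0% in the global MAGL-KO (1.41% over all genes). With 1 library per group, differences between animals and between conditions cannot be told apart, and depth limits class values in the 223 astrocytes most.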
